A study of Danio rerio with 20 samples.

Results

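The nuclear genes for the subunits of the respiratory chain and of ATP synthase were followed in whole zebrafish embryos. A gene was taken where a non-control probe of the array was matched to a zebrafish symbol that starts with nduf, uqcr, sdh, atp5 or cox4 to cox8. This gave 63 genes, with 1 probe each, of the 14657 genes on the array. Of the 109 symbols of the gene table that fit these names, the other 46 were matched to no probe and were not analysed here. The embryos formed 4 groups of 5 arrays, each array from an independent replicate, with 100 embryos given per treatment. The groups were 0.1% ethanol, the vehicle, 10 µM cyclopamine, 10 µM SANT-2 and 10 µM GANT-61, all given from 0.5 to 24 hours post fertilization (hpf). Cyclopamine, a plant alkaloid, and SANT-2 are known to bind smoothened, the membrane protein that switches the hedgehog pathway on, and GANT-61 is known as an inhibitor of the gli transcription factors at its end.

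Oxidative phosphorylation takes place in the inner membrane of mitochondria. Complex I oxidises NADH and complex II oxidises succinate, both pass electrons through ubiquinone to complex III and then through cytochrome c to complex IV, which reduces oxygen, and complex V, the ATP synthase, uses the resulting proton gradient to make ATP. Most subunits are encoded in the nucleus and some in mitochondrial DNA, and assembly factors help to build the complexes without being part of them. Cells with a high demand for ATP, such as heart and muscle, are rich in these complexes.

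The 63 genes comprised 27 of complex I, 3 of complex II, 5 of complex III, 12 of complex IV, 12 of complex V and 4 assembly factors. ndufa4a, a member of the nduf family whose mammalian counterpart was found in complex IV, was counted there. Levels are given as the log2 of the scanner's processed signal minus the 75th percentile of the same array, so that 0 stands for a spot as bright as that percentile. Differences are given on the same log2 scale. The signal was well above background on all 20 arrays for 60 of the 63 genes. ndufs8b was above background on 0 of 20 arrays and was not tested, although its paralog ndufs8a was above background on all of them. ndufa12 was above background on 13 of 20 arrays, 5 of them from GANT-61 and 2 from ethanol, and cox6a2 on 17. The subunits encoded in mitochondrial DNA were not analysed here.

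Array depth differed between arrays. The number of probes well above background ran from 10038 to 12610. The arrays lay on 4 slides, each with its own scan and with all 4 groups. Slide 2 was dim: its 75th percentile of the signal was 566 to 763, against 1126 to 2060 on the other 15 arrays. Its numbers of probes above background, 10038 to 11381, overlapped those of the other slides, 10316 to 12610. The 10 hedgehog-responsive genes are a list chosen with results of these data known, and so no independent check of the treatments. Of them 10 were called lower under cyclopamine, with a median change of -2.30, where 0.875% of all genes were called. The count was 0 under SANT-2 and under GANT-61, against 0% and 0.157% of all genes. Genes were tested with limma, all 4 groups in 1 fit, and a gene was called at a Benjamini-Hochberg adjusted p under 0.05 over the 11433 genes tested. Since the RNA came from whole embryos, fewer cells of a type and less RNA per cell cannot be told apart.

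The first question was whether any of the 3 compounds changed these genes. The limma model called 0 of 62 members in every comparison with ethanol. Under cyclopamine the test called 0.875% of all genes, 100 of 11433. Under SANT-2 it called 0% of all genes. Under GANT-61 it called 0.157%, 18 genes. With 62 members, a share like these would amount to less than 1 gene, so the members' counts lie near the background. At an unadjusted p under 0.05, 1 member stood out under cyclopamine (cox4i2), 0 under SANT-2 and 2 under GANT-61 (atp5if1a and cox6a2), against 5.36%, 1.12% and 6.29% of all genes. A limma fit that gave each array a weight called 8 members under GANT-61, all higher. Among them were ndufb5 (0.23, limma adjusted p = 0.0451) and cox6a2 (0.55, limma adjusted p = 0.0236). That fit called 12.1% of all genes, 1384 against 18 without weights. Of the 1384, 1167 were higher and 217 lower. The 8 include ndufa12 (0.64), which was tested only because GANT-61, the group where it was high, passed the filter, so its call is no support.

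The members differed little from ethanol on average. The median change was 0.05 under cyclopamine, 0.11 under SANT-2 and 0.09 under GANT-61, beside 0.03, 0.04 and 0.05 over all genes tested. The groups were spread unevenly over the slides. Replicates 1 and 2 of ethanol and of cyclopamine shared slide 1, 2 and 3 of SANT-2 slide 2, and 3 and 4 of GANT-61 slide 3. With slide as a block the member medians were 0.05, 0.07 and 0.06, beside 0.03, 0.03 and 0.05 over all genes, with 40, 54 and 46 members above 0. With the local background subtracted the order turned, with member medians of 0.03, 0.09 and 0.05 beside 0.11, 0.10 and 0.11 over all genes. Leaving out 1 array moved the member median between -0.0065 and 0.10 under cyclopamine, 0.07 and 0.17 under SANT-2, and 0.05 and 0.15 under GANT-61. The fitted change was above 0 for 40 of 62 members under cyclopamine, against 57.0% of all genes. It was above 0 for 52 of 62 under SANT-2 and for 52 of 62 under GANT-61, against 60.0% and 60.1%. The shifts from 0 moved with the scaling, as did those of all genes. With each array set to its median in place of its 75th percentile, the members' medians were 0.03, 0.06 and 0.01, beside 0.01, -0.02 and -0.03 over all genes. Then 38, 42 and 34 members were above 0, while 33, 47 and 40 lay above the median of all genes, the same counts as in the main scaling. In the authors' deposited normalized table the members' medians were -0.0093, 0.04 and 0.03, beside 0.0028, -0.02 and -0.01 over all genes. There 27, 39 and 40 members were above 0, so the sign for cyclopamine was reversed. The change was above 0 on each of the 4 slides for 14 members under cyclopamine, 11 under SANT-2 and 16 under GANT-61, against 18.6%, 6.26% and 14.7% of all genes.

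The data also bound how large a change could have been. The 95% interval of the change lay wholly between -1 and 1, that is within 2-fold either way, for 60 members under cyclopamine, 60 under SANT-2 and 59 under GANT-61, against 83.8%, 84.2% and 81.4% of all genes tested. It lay between -0.5 and 0.5 for 48, 44 and 44 members, against 38.5%, 44.1% and 37.6%. The interval reached 0.31 to each side of the estimate at the median member, from 0.19 for the narrowest to 1.24 for the widest, against 0.42 over all genes. The median SD within groups was 0.23 over the members, against 0.32 over the 11371 tested genes with a value on all 20 arrays. Members and all genes were not matched for signal. Of the 62 tested members 60 were well above background on all 20 arrays, against 9276 of the 11433 genes tested. The part of signal in the narrower intervals and the smaller SD was not tested.

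**Figure D1:**
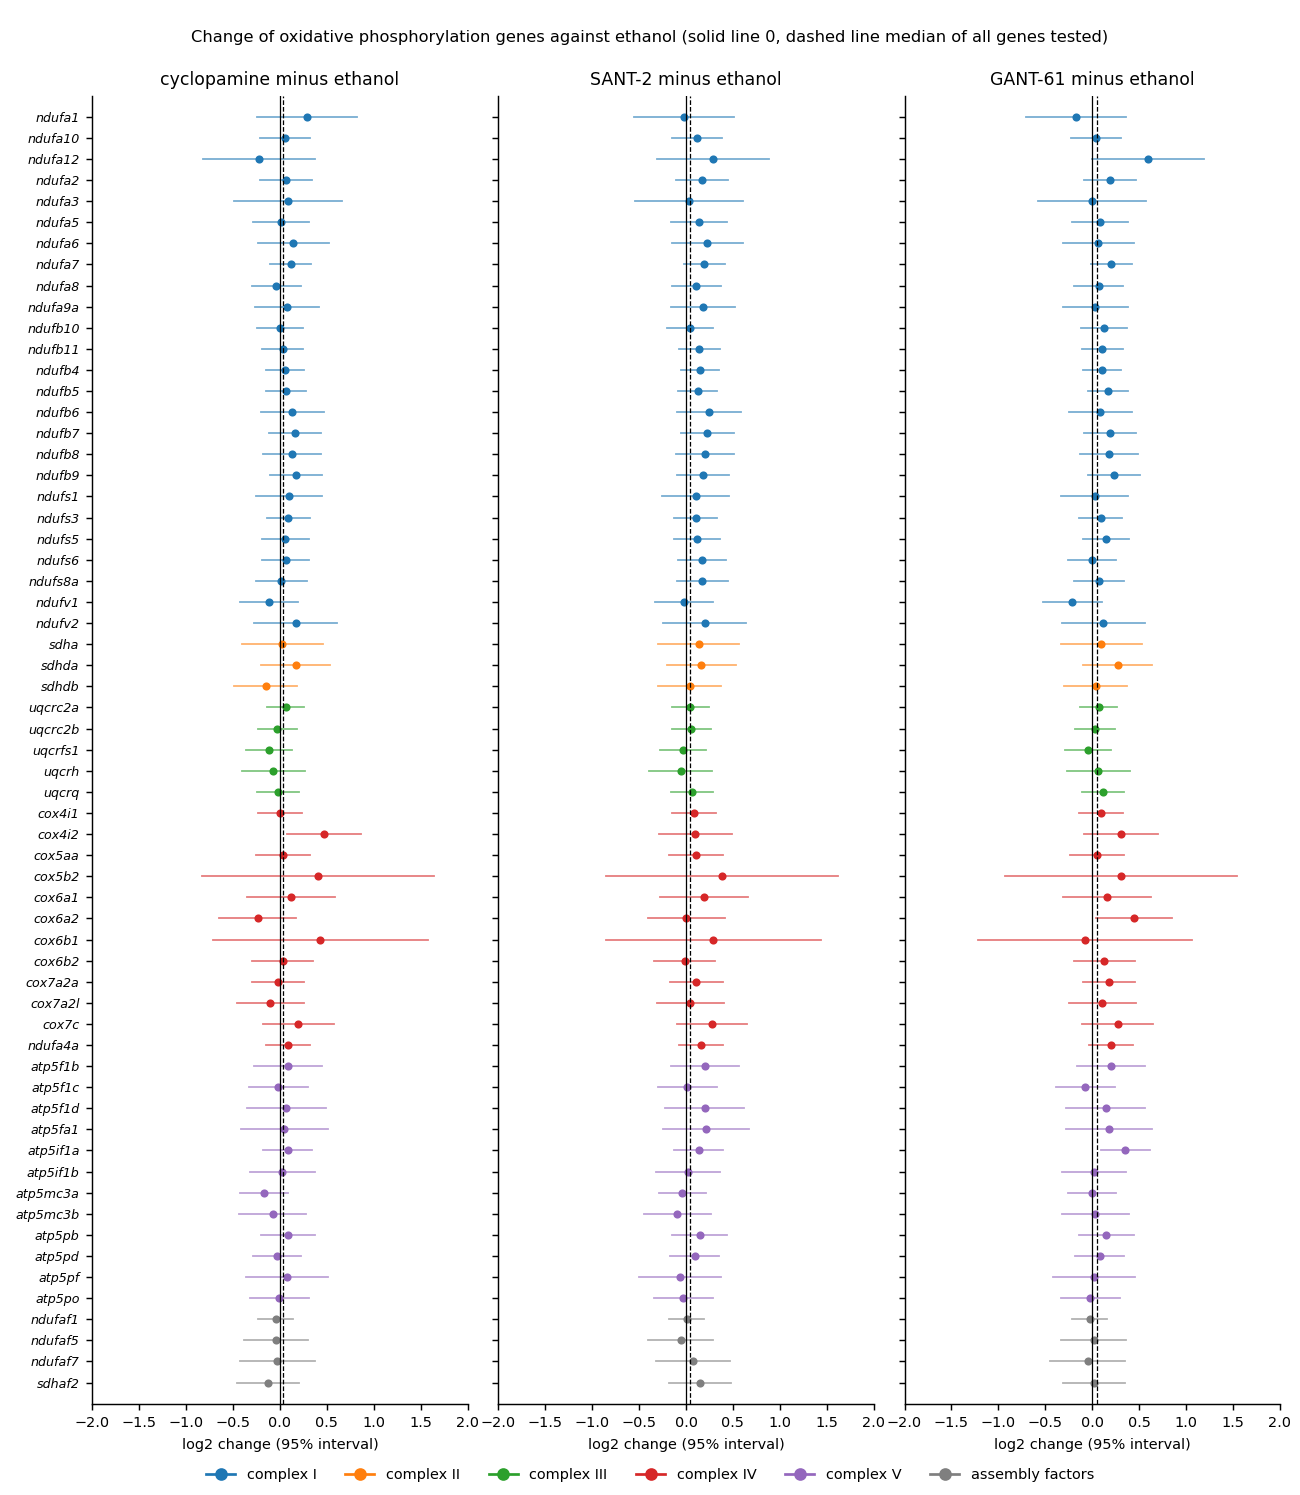
Fitted log2 change against ethanol (horizontal axis) of 61 of the 62 tested members, grouped by complex from top to bottom, for cyclopamine, SANT-2 and GANT-61; points are estimates and lines their 95% intervals from limma, 5 arrays per group. Nearly all points lie close to 0, and the wide intervals belong to cox5b2, cox6b1, ndufa12, ndufa1 and ndufa3.

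Complex I, which oxidises NADH, contributed 26 tested genes, and 0 were called. Their median change was 0.07 under cyclopamine (22 of 26 above 0), 0.15 under SANT-2 (24 of 26) and 0.10 under GANT-61 (23 of 26). Of all genes tested, 57.0%, 60.0% and 60.1% were above 0. These values come from the fit without a block, and the groups were spread unevenly over the slides. With each gene centred on its mean over the 20 arrays, the complex I median averaged -0.13 on slide 1 and 0.19 on slide 2. The part of the slides in these changes was not tested. The core subunits that carry the flavin and the iron-sulfur clusters include ndufs1 and ndufv1. ndufs1 stood at 4.59, 4.65, 5.14, 4.70 and 4.53 on the ethanol arrays and at 4.65, 4.81, 5.36, 4.67 and 4.60 on the cyclopamine arrays, in order of replicate number. It stood at 4.66, 5.00, 5.17, 4.75 and 4.54 under SANT-2 and at 4.46, 5.13, 4.72, 4.82 and 4.61 under GANT-61. In all 4 groups the highest value came from an array of slide 2, and the groups overlapped. ndufv1, the flavin-binding core subunit at which NADH is oxidised, had the most negative changes of the complex under SANT-2 and GANT-61, at -0.02 and -0.21 ± 0.15 (SE, n = 5 per group; limma adjusted p = 0.838 for GANT-61), and the second most negative under cyclopamine, at -0.12. Its ethanol arrays held 1 high value, 1.91 on slide 2, with the other 4 between 1.11 and 1.27.

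Among the accessory subunits of complex I, ndufb9, a subunit of the membrane arm, differed by 0.17 under cyclopamine, 0.18 under SANT-2 and 0.24 ± 0.13 under GANT-61 (limma adjusted p = 0.824). ndufb6, of the same arm, differed by 0.24 under SANT-2, and 0.13 and 0.09 under cyclopamine and GANT-61. ndufa1, a small membrane subunit, differed by 0.29 ± 0.25 under cyclopamine, -0.02 under SANT-2 and -0.17 under GANT-61. On single arrays ndufa1 ran from -3.74 to -2.01, and its groups overlapped throughout. ndufa12 had the widest interval of the complex and is taken up with the comparisons between compounds.

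Complex II, succinate dehydrogenase, belongs to the respiratory chain and to the citrate cycle. All 3 of its genes with a probe were tested and 0 were called. sdha encodes the flavoprotein subunit that oxidises succinate. It stood at 3.79, 3.72, 4.44, 3.87 and 3.59 under ethanol and at 3.79, 3.82, 4.64, 3.66 and 3.63 under cyclopamine. It stood at 4.16, 4.11, 4.43, 3.70 and 3.68 under SANT-2 and at 3.79, 4.40, 3.94, 3.95 and 3.82 under GANT-61. The groups overlapped, and the top value of every group came from slide 2. The changes of sdha were 0.02, 0.13 and 0.10, each with an SE of 0.21 (n = 5 per group). sdhda and sdhdb encode 2 forms of the membrane anchor subunit. sdhda differed by 0.17 under cyclopamine, 0.16 under SANT-2 and 0.27 ± 0.17 under GANT-61 (limma adjusted p = 0.830), and sdhdb by -0.15, 0.04 and 0.04.

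Complex III, which passes electrons from ubiquinol to cytochrome c, had 5 genes, all tested and 0 called. Its medians were -0.03, 0.05 and 0.07 under cyclopamine, SANT-2 and GANT-61. uqcrc2a and uqcrc2b, which encode forms of a core protein of the matrix side, differed by 0.06, 0.05 and 0.07 and by -0.03, 0.05 and 0.03. uqcrfs1, the Rieske iron-sulfur protein that takes electrons from ubiquinol, differed by -0.12 ± 0.12 under cyclopamine, -0.03 under SANT-2 and -0.04 under GANT-61. uqcrh, the hinge protein beside cytochrome c1, differed by -0.07, -0.06 and 0.07, and uqcrq, a small subunit, by -0.02, 0.07 and 0.12. The 95% intervals of uqcrc2a, uqcrc2b, uqcrfs1, uqcrh and uqcrq stayed between -0.5 and 0.5 under all 3 compounds.

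Complex IV, cytochrome c oxidase, had 12 tested genes, of which 0 were called. Its medians were 0.06, 0.11 and 0.17. cox4i1, the main form of subunit IV, stood at 5.36, 5.14, 5.56, 5.31 and 5.38 under ethanol and at 5.28, 5.20, 5.70, 5.22 and 5.32 under cyclopamine. Under SANT-2 it stood at 5.29, 5.47, 5.61, 5.43 and 5.37, and under GANT-61 at 5.32, 5.56, 5.38, 5.57 and 5.39. The groups overlapped, and the 95% interval of the change lay within -0.23 and 0.33 for every compound. cox4i2, the paralog that mammals use under low oxygen, stood at -3.14, -2.67, -3.88, -3.21 and -3.40 under ethanol and at -2.70, -2.53, -3.26, -2.62 and -2.85 under cyclopamine. The cyclopamine value was the higher one for each of the 5 replicate numbers, but the groups overlapped. The change was 0.47 ± 0.19 (SE, n = 5 per group; limma adjusted p = 0.647), or 1.38-fold, and 0.29 to 0.62 within single slides. That SE and adjusted p do not use the pairing by replicate number. In that comparison cox4i2 was called neither with slide nor with the replicate number as a block, where 2.17% and 2.24% of all genes were called. Its change was 0.10 under SANT-2 and 0.31 under GANT-61.

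Among the other subunits of complex IV, cox5aa, which encodes subunit Va, differed by 0.03, 0.11 and 0.05, and cox7c by 0.20, 0.28 and 0.27, each with an SE of 0.18. cox7a2a differed by -0.02, 0.11 and 0.18. cox7a2l, whose mammalian counterpart joins complexes III and IV into supercomplexes, differed by -0.10, 0.05 and 0.11. cox6a1, the ubiquitous form of subunit VIa in mammals, differed by 0.12, 0.19 and 0.16, and cox6b2 by 0.03, -0.01 and 0.13. ndufa4a differed by 0.08, 0.16 and 0.20.

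Complex V, the ATP synthase, had 12 tested genes, of which 0 were called. Its medians were 0.04, 0.06 and 0.06. atp5f1b encodes the catalytic beta subunit. It stood at 6.41, 6.29, 7.09, 6.56 and 6.50 under ethanol and at 6.48, 6.55, 7.24, 6.53 and 6.45 under cyclopamine. It stood at 6.71, 6.89, 7.12, 6.58 and 6.55 under SANT-2 and at 6.61, 7.08, 6.80, 6.66 and 6.68 under GANT-61. The groups overlapped, with the slide 2 arrays at the top of each group, and the changes were 0.08, 0.20 and 0.20 with an SE of 0.17. atp5fa1, the alpha subunit, differed by 0.05, 0.21 and 0.18, and atp5f1c, the gamma subunit of the central stalk, by -0.02, 0.01 and -0.07. Among the peripheral stalk genes, atp5pb differed by 0.09, 0.15 and 0.15, atp5pf by 0.07, -0.07 and 0.02, and atp5po, the link to the catalytic head, by -0.0059, -0.03 and -0.02. For the proton-carrying ring of c subunits, atp5mc3a differed by -0.17, -0.04 and -0.0050, and atp5mc3b by -0.08, -0.09 and 0.03.

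The 4 assembly factors were tested and 0 were called. ndufaf1, ndufaf5 and ndufaf7 serve complex I, and sdhaf2 helps to attach the flavin to sdha. Under cyclopamine the changes of all 4 were below 0, from -0.13 for sdhaf2 to -0.03 for ndufaf7. Under SANT-2 they ran from -0.06 for ndufaf5 to 0.15 for sdhaf2, and under GANT-61 from -0.05 for ndufaf7 to 0.02 for sdhaf2. ndufaf1 differed by -0.04, 0.0053 and -0.03.

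The compounds were then compared with each other at the same dose and time, in 3 pairs. The limma test called 0 of 62 members between cyclopamine and SANT-2 and 0.752% of all genes, 86. It called 0 members between cyclopamine and GANT-61 and 1.83% of all genes, 209. It called 0 members between SANT-2 and GANT-61 and 0.262% of all genes, 30. At an unadjusted p under 0.05 the counts of members were 0, 3 and 1, against 3.69%, 8.92% and 3.74% of all genes. The member medians were -0.08, -0.07 and 0.01, beside -0.02, -0.04 and -0.01 over all genes. The 95% interval of the difference lay between -1 and 1 for 59, 58 and 60 of the 62 members, against 85.0%, 81.9% and 84.9% of all genes. These comparisons share arrays with those against ethanol.

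The members with an unadjusted p under 0.05 between compounds were cox6a2, ndufa12 and atp5if1a. cox6a2 encodes the form of subunit VIa that mammals use in heart and skeletal muscle. It stood at -4.94, -5.26, -4.57, -4.38 and -4.89 under ethanol and at -4.54, -5.38, -5.46, -4.64 and -5.19 under cyclopamine. It stood at -5.02, -4.50, -5.10, -4.50 and -4.88 under SANT-2 and at -4.45, -4.43, -4.40, -4.21 and -4.32 under GANT-61. All 5 GANT-61 values were above all 5 cyclopamine values and all 5 SANT-2 values, while 1 ethanol array reached into the GANT-61 range. It was the 1 member whose groups did not overlap between cyclopamine and GANT-61, against 2.18% of all genes that were lower without overlap, and also the 1 member between SANT-2 and GANT-61, against 0.822%. The difference of cyclopamine minus GANT-61 was -0.68 ± 0.19 (SE, n = 5 per group), 1.60-fold, with a limma adjusted p of 0.0964, and it was -1.03 to -0.33 within single slides. With the replicate number as a block the difference of -0.68 was called (adjusted p = 0.0304), where 5.65% of all genes were called. With slide as a block it was -0.60 and not called (adjusted p = 0.0616). Against ethanol, cox6a2 differed by -0.24 under cyclopamine, 0.0047 under SANT-2 and 0.44 ± 0.19 under GANT-61 (adjusted p = 0.777). The signal was well above background on 3 of 5 cyclopamine and 4 of 5 SANT-2 arrays, and on all arrays of the other groups.

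ndufa12, an accessory subunit of complex I, was near the background limit. It was tested only because GANT-61 passed the filter, with 5 of 5 arrays above background against 2 of ethanol, 3 of cyclopamine and 3 of SANT-2, so its differences from GANT-61, the group where it was high, are given as a description. It stood at -5.66, -6.43, -5.23, -5.97 and -5.37 under ethanol and at -6.19, -6.91, -5.02, -5.97 and -5.71 under cyclopamine. It stood at -5.82, -5.45, -5.87, -4.88 and -5.20 under SANT-2 and at -5.21, -5.18, -5.13, -5.23 and -4.93 under GANT-61. The GANT-61 values lay close together, 1 array each of ethanol, cyclopamine and SANT-2 lay among them, and 1 SANT-2 array lay above them. The difference of cyclopamine minus GANT-61 was -0.82, partly against arrays at background, and within slides it was -1.34, 0.16, -0.78 and -0.78. GANT-61 minus ethanol was 0.59.

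atp5if1a encodes an inhibitory factor of ATP synthase, a small protein known to block the hydrolysis of ATP when the proton gradient fails. It stood at 5.30, 5.14, 5.59, 5.19 and 5.26 under ethanol and at 5.54, 5.92, 5.62, 5.50 and 5.67 under GANT-61. It stood at 5.22, 5.38, 5.62, 5.21 and 5.46 under cyclopamine and at 5.22, 5.56, 5.70, 5.42 and 5.26 under SANT-2. The highest ethanol value came from the dim slide 2 and reached above 2 GANT-61 values from slides 1 and 3, so the groups overlapped. GANT-61 minus ethanol was 0.35 ± 0.12 (SE, n = 5 per group), 1.28-fold, with a limma adjusted p of 0.567. Within slides the difference was 0.32, 0.33, 0.37 and 0.41, and with slide as a block it was 0.35 and called (adjusted p = 0.0235), where 1.71% of all genes were called. With the replicate number as a block it was 0.35 and not called (adjusted p = 0.0990). Cyclopamine minus GANT-61 was -0.27 ± 0.12 (adjusted p = 0.526) and was called with slide as a block (-0.27, adjusted p = 0.0376), where 5.36% of all genes were called, but blocking on the replicate number it was not (adjusted p = 0.134). atp5if1b, the paralog, differed by 0.02 between GANT-61 and ethanol.

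**Figure D2:**
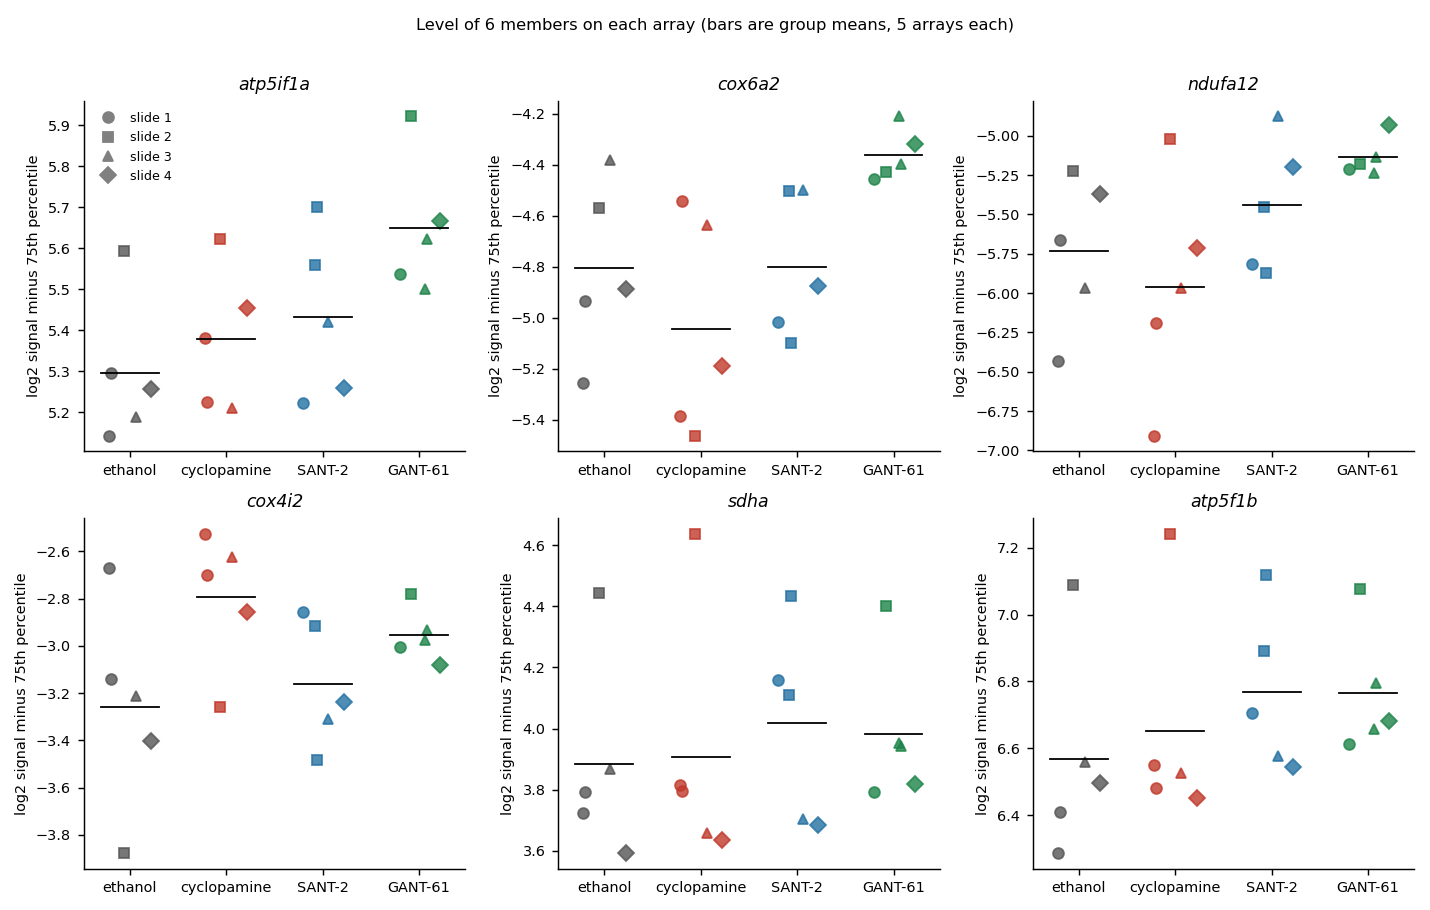
Level of 6 members on each of the 20 arrays (vertical axis, log2 signal minus the 75th percentile of the array) by group, with marker shape for the slide and bars for the means of 5 arrays. The GANT-61 arrays lie high for atp5if1a, cox6a2 and ndufa12, the cyclopamine arrays for cox4i2, and the highest point of each group for sdha and atp5f1b is a slide 2 square.

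The slide took a larger share of the variance than the group in 59 of 62 members, the exceptions being cox6a2, cox4i2 and ndufa7. The same count over all genes is not given here. The slide took 62.1% of the variance of the median member over the 20 arrays, and the group 9.69%, against 54.3% and 10.9% over all genes with a value on all arrays. A larger median share for slide than for group was thus no trait of the members alone. Each share was taken alone, without correction for the number of levels, and the shares of slide, group and replicate number can overlap. The lowest share that slide took of any member was 22.6%, for ndufv1. On slide 2, 40 of 62 members lay higher than the mean of the other 15 arrays, against 58.4% of all genes, and the median member lay 0.22 higher, against 0.11. All 5 arrays of slide 2 were above all 15 others for 14 members, 22.6%, against 11.6% of all genes, and below all 15 for ndufa3 and uqcrh, 3.23% against 5.34%.

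The slide 2 difference is given by complex as a description, since some sets are small and no test between complexes was run. On slide 2, 22 of 26 complex I members were higher, with a median difference of 0.28, while 2 of 5 complex III members and 1 of 4 assembly factors were, with medians of -0.12 and -0.22. In complex II 2 of 3 members were higher, with a median of 0.27. Complex IV and complex V were split, with 6 of 12 and 7 of 12 members higher. The largest differences upward were those of cox6a1 (0.63), ndufv2 (0.63), atp5f1d (0.61), sdha (0.61) and atp5fa1 (0.60). The largest downward were those of ndufa3 (-0.84), ndufa1 (-0.68), atp5pf (-0.53), uqcrh (-0.46) and ndufaf5 (-0.42). These genes are named for their values. Paralogs differed in sign on slide 2 in 6 of 8 pairs with both members tested, and in the pair of cox6a1 and cox6a2 the cox6a2 value was only -0.08. The share among other pairs of genes is not given, so the count is a description. On slide 2 sdhda was 0.27 higher and sdhdb 0.30 lower, and atp5if1a was 0.32 higher and atp5if1b 0.32 lower. Slide 2 was the dim one, and the part of its lower signal in these differences was not tested.

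**Figure D3:**
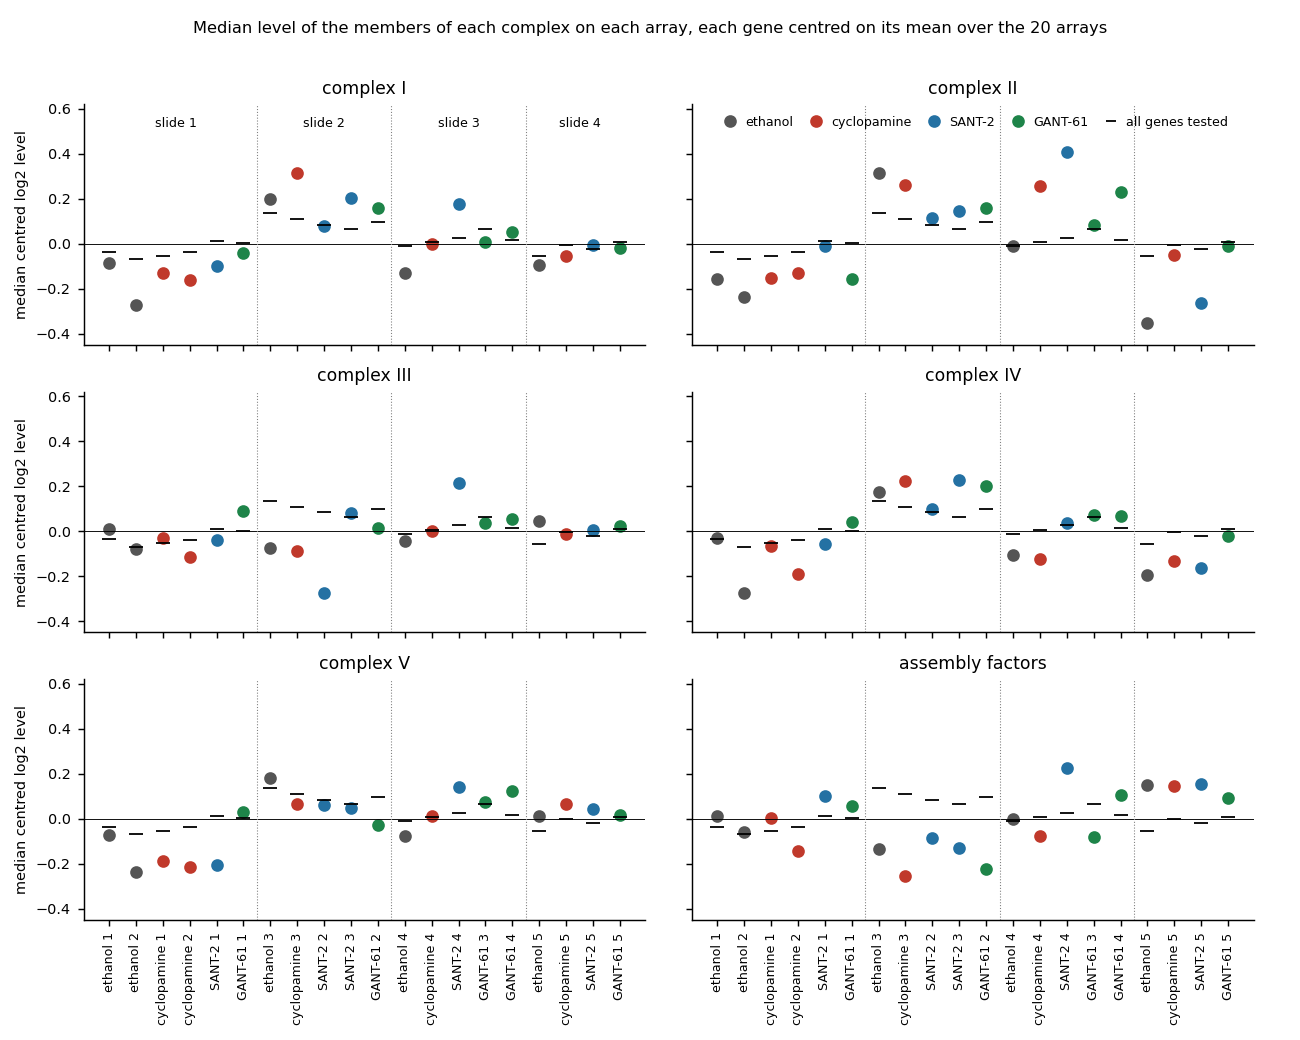
Median level of the members of each complex on each array (vertical axis, log2, each gene centred on its mean over the 20 arrays), with arrays ordered by slide along the horizontal axis, colours for the groups and dashes for the median of all genes tested. On slide 2 the complex I medians lie between 0.08 and 0.31 whatever the treatment, and those of the assembly factors between -0.25 and -0.09.

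Within groups, the members of complex I lay at a median level of -0.08 ± 0.17 (SD, n = 5 arrays) under ethanol, -0.0071 ± 0.19 under cyclopamine, 0.07 ± 0.13 under SANT-2 and 0.03 ± 0.08 under GANT-61. Complex IV lay at -0.09 ± 0.17, -0.06 ± 0.16, 0.03 ± 0.15 and 0.07 ± 0.08, and complex V at -0.04 ± 0.15, -0.05 ± 0.14, 0.02 ± 0.13 and 0.04 ± 0.06. These means and SDs include the differences between slides, over which the groups were spread unevenly. The median of all genes tested lay at -0.0072 under ethanol, 0.0039 under cyclopamine, 0.03 under SANT-2 and 0.04 under GANT-61.

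Among the complex IV members, cox5b2 and cox6b1 stood out by their spread, with SDs within groups of 1.00 and 0.93 against a member median of 0.23, and both followed the replicate number of the sample titles. cox5b2 encodes subunit Vb, which binds zinc in mammals. It stood at 0.56, 1.80, 1.43 and 1.71 on the arrays numbered 1 of ethanol, cyclopamine, SANT-2 and GANT-61, and between -1.38 and -0.10 on the other 16 arrays. The 4 high arrays all lay on slide 1, and the remaining arrays of that slide, ethanol 2 and cyclopamine 2, stood at -0.60 and -0.91. The replicate number took 90.1% of its variance, the slide 53.7% and the group 3.20%.

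cox6b1 encodes subunit VIb, which faces the space between the membranes. It stood between -3.43 and -3.05 on the 4 arrays numbered 2, which lay on slides 1 and 2, and between -3.16 and -2.88 on those numbered 5. It stood between -2.09 and -1.28 on those numbered 3, between -2.17 and -1.39 on those numbered 4, and between -2.47 and -0.28 on those numbered 1. The replicate number took 76.5% of its variance and the slide 25.4%, and on slide 1 the arrays numbered 1 were all above those numbered 2. The share taken by the number was larger than that of the slide for 21 of 62 members, against 48.5% of the genes compared, and its median was 59.7%, against 54.4%. The number has 5 levels and the slide 4, and the shares were not corrected for that. The labels call the replicates independent and do not say what arrays of the same number share.

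The changes of both genes had wide intervals. Cyclopamine minus ethanol was 0.41 for cox5b2, with a 95% interval from -0.83 to 1.64, and blocking on the replicate number gave an interval of 0.02 to 0.79 (limma adjusted p = 0.346). For cox6b1 it was 0.43, from -0.71 to 1.58, and with the block from -0.14 to 1.01 (adjusted p = 0.518). SANT-2 minus ethanol was 0.39 and 0.29, and GANT-61 minus ethanol 0.30 and -0.08.

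**Figure D4:**
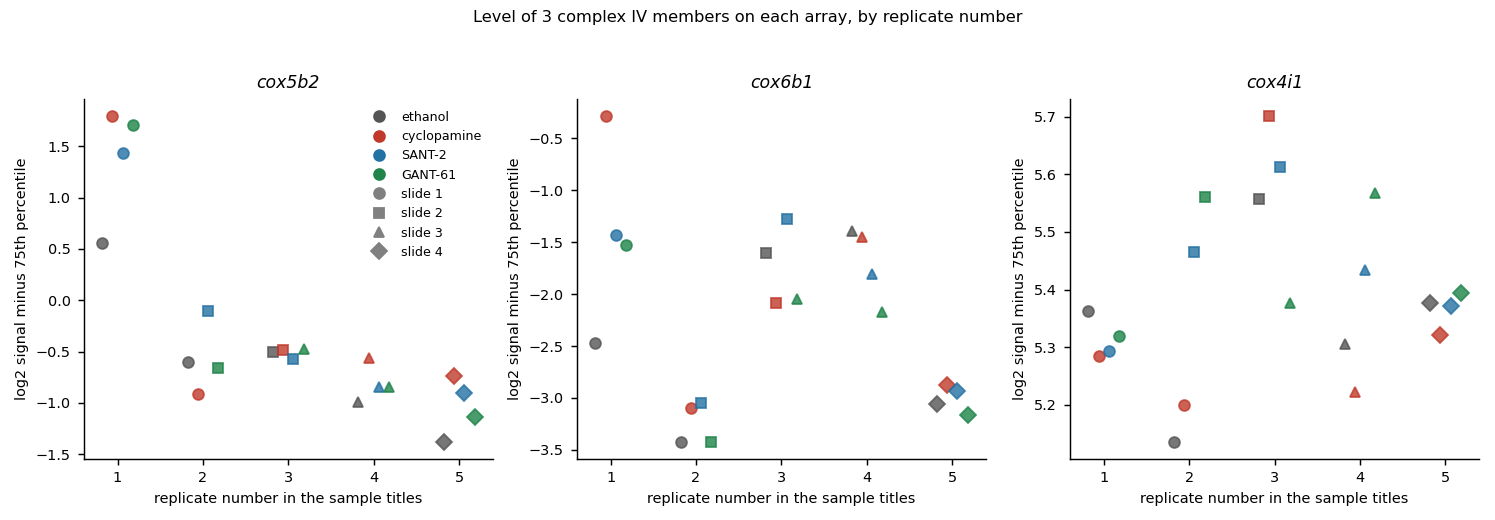
Level of cox5b2, cox6b1 and, for comparison, cox4i1 on each array (vertical axis, log2 signal minus the 75th percentile of the array) by the replicate number of the sample titles, with colours for the groups and marker shape for the slide. The 4 arrays numbered 1 lie at 0.56 to 1.80 for cox5b2, and for cox6b1 the arrays numbered 2 and 5 lie low in all 4 groups.

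Genes that work beside these complexes were read in the same model. Of 59 electron carriers, assembly factors and subunits outside the name rule, 33 had a probe and 32 were tested, and 0 were called in any comparison. Their medians were -0.05, 0.02 and -0.02 under cyclopamine, SANT-2 and GANT-61. cyc1, the cytochrome c1 subunit of complex III, differed by 0.18 under GANT-61 and cycsb, a cytochrome c, by 0.08. Of 51 tested genes of the mitochondrial ribosome, which translates the subunits encoded in mitochondrial DNA, 0 were called, and the medians were -0.04, 0.06 and 0.07. Of 10 tested regulators of mitochondrial gene expression 0 were called, with medians of 0.02, -0.01 and -0.01. Of 14 tested genes of pyruvate dehydrogenase and the citrate cycle 0 were called, with medians of -0.13, -0.0050 and -0.03.

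Transport and glycolysis were read likewise. Among 22 tested genes of mitochondrial transport and cristae, 1 was called, between cyclopamine and GANT-61, where 1.83% of all genes were called. It was timm17a, a subunit of the inner membrane import channel, at -0.37 under cyclopamine against GANT-61 (limma adjusted p = 0.0248). The medians of that list against ethanol were -0.04, 0.03 and 0.08. Of 21 tested glycolysis genes 0 were called in any comparison, and their medians were 0.0016, 0.15 and -0.08, with single changes from -1.67 to 0.42 under cyclopamine. In comparisons taken as paired, the replicate block added calls: pkmb, a pyruvate kinase, at -1.67 between cyclopamine and ethanol (adjusted p = 0.0185) and also lower under cyclopamine than under SANT-2, and 3 glycolysis genes higher under cyclopamine than under GANT-61. In these 3 comparisons the block called 2.24%, 1.78% and 5.65% of all genes. The same block also called timm17a lower under cyclopamine than under ethanol (-0.29, adjusted p = 0.0371), and coa7 (-0.37, adjusted p = 0.00608) and mrps5 (-0.39, adjusted p = 0.00986) lower than under GANT-61.

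Muscle and heart hold many mitochondria, so their marker genes were set beside the members. Under cyclopamine the changes of all 6 tested slow muscle genes were below 0, from -3.02 to -0.34, with a median of -2.82. Of these genes 5 were called, where 0.875% of all genes were called. Among them myl10, a myosin light chain, fell by 2.78 on the log2 scale (limma adjusted p = 5.13e-06). The median centred level of the slow muscle list ran from -2.81 to -0.90 on the cyclopamine arrays and from 0.30 to 0.99 on the ethanol arrays. On the same arrays the median level of the 62 members ran from -0.16 to 0.20 under cyclopamine and from -0.24 to 0.17 under ethanol. Of 13 tested fast muscle genes 0 were called in any comparison, with medians of -0.10, 0.15 and -0.36, and of 9 tested heart genes 0 were called, with medians of -0.24, -0.04 and -0.21. With the replicate block, 2 heart genes were called lower under cyclopamine than under ethanol, where it called 2.24% of all genes: myl4, a myosin light chain (-1.72, adjusted p = 0.0124), and nkx2.5, a cardiac transcription factor (-0.56, adjusted p = 0.000358). That block also called heart genes between the compounds, and 3 erythroid genes higher under cyclopamine than under GANT-61. Of all genes it called 1.78% between cyclopamine and SANT-2, 5.65% between cyclopamine and GANT-61 and 1.01% between SANT-2 and GANT-61. The heart list lay between 0.08 and 0.35 on the ethanol arrays and between -0.43 and 0.02 on the cyclopamine arrays. Without the block, erythroid, yolk and liver markers had 0 calls in any comparison. Among 9 tested neuron markers phox2a was called, at -1.23 under cyclopamine against ethanol (limma adjusted p = 0.00652). It was also called lower under cyclopamine than under SANT-2 and GANT-61. In these comparisons 0.875%, 0.752% and 1.83% of all genes were called. The part of these tissues in the level of the members was not tested.

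**Figure D5:**
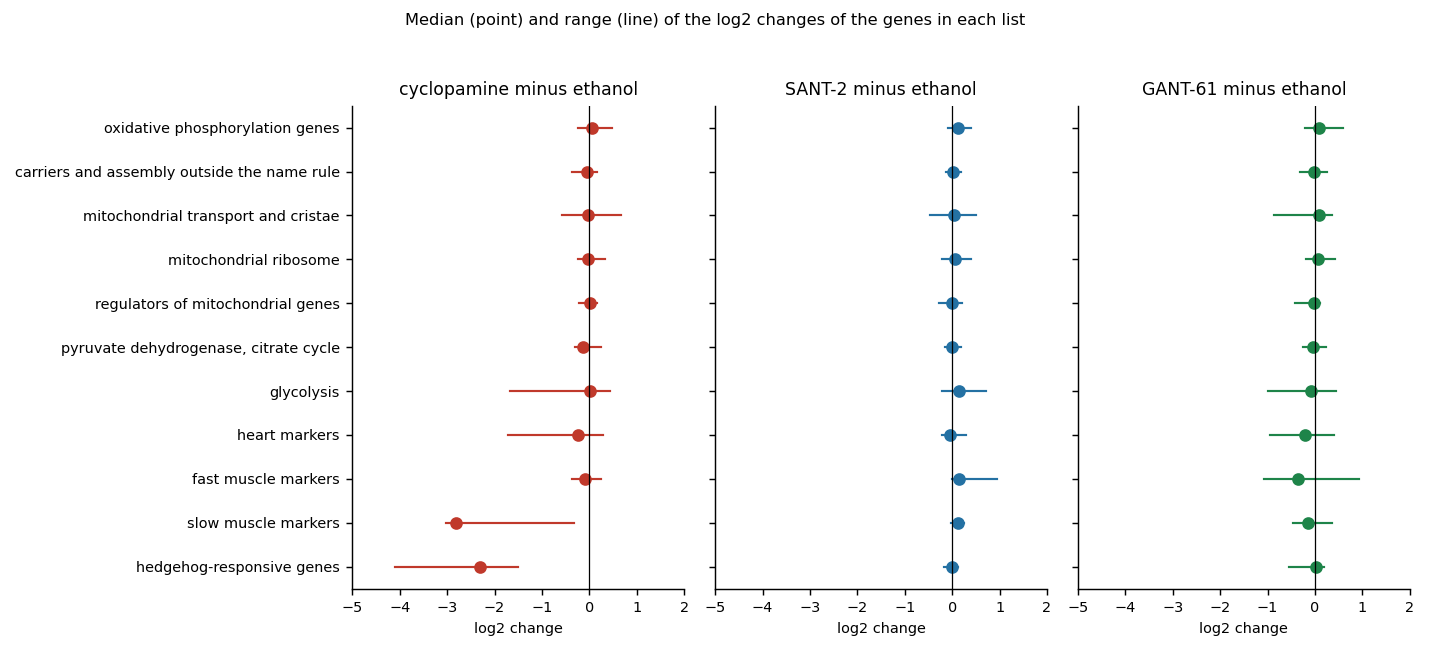
Median (point) and range (line) of the fitted log2 changes against ethanol of the oxidative phosphorylation genes, 6 other lists of energy metabolism, 3 marker lists and the hedgehog-responsive genes, for the 3 compounds. Under cyclopamine the slow muscle and hedgehog-responsive lists lie at medians of -2.82 and -2.30, and the oxidative phosphorylation genes at 0.05.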

How the data were processed

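Total RNA of whole zebrafish embryos was hybridised to 20 one-colour Agilent arrays. The authors deposited the scanner intensity of each spot, which per the file headers was processed with Feature Extraction 10.1.1.1, and a normalized log2 table, whose method is not given in the sources used here. Here the log2 of the processed signal minus the 75th percentile of each array was taken, with control spots and outlier-flagged spots set aside. Spots of a probe were averaged and the brightest probe of a gene was kept. Probe names were matched to current symbols: 9185 of 14694 probes had 1 symbol and 5509 had none. Tested were the 11433 genes whose spots passed the scanner's background flag on 4 or more of the 5 arrays in any group. Testing used limma 3.58.1 in R 4.3.3, with 4 group means and 6 contrasts, two-sided, and Benjamini-Hochberg adjustment at 0.05. The script was tested on simulated data. These data held no slide or replicate differences, so they cannot show how calls and intervals behave where such differences exist. The number of arrays limits the precision.

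Same-numbered arrays deviated together in every pair, with correlations of 0.14 to 0.82, in 4 of the 6 comparisons, and these were taken as paired. SANT-2 and GANT-61 against ethanol had pairs down to -0.0086 and -0.05, and were not. In each comparison 3 to 5 of the 5 same-numbered pairs lay on 1 slide, so number and slide overlap. The part of the slide in these correlations was not tested. The main fit held no block, so its calls, SEs and intervals do not use the pairing. It enters only in the fits with the replicate block. Named are all members called in any comparison, the 2 highest and 2 lowest changes of each complex under each compound, all sdh genes, paralogs both tested and members too dim to test. In other lists only some of the called or brightest genes are named, and some genes called under a block alone. A few more members are named as examples. The members and lists were chosen with earlier results of these data known. Alternatives covered background, scaling, filter, array weights, blocks and left-out arrays or slides. The files used here hold no mean signal, so the normexp correction ran on median signals. Single values of 1 member, which is counted in all totals, are not reported here. No gene coordinates or sequences were used.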

Additional observations from a re-analysis of the deposited data

Results flagged for a closer look

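In 37 of 248 sets of 5 arrays (1 member in 1 group), or 14.9%, the highest or lowest array stood apart from the others by more than 0.71 of the range of its group, where chance gives about 5%. The share over all genes is not given here, and members share arrays, so the sets are not independent. Of these 37 values, 34 came from slide 2, 2 from slide 1 and 1 from slide 4. Those of slide 2 came from cyclopamine 3 (15), ethanol 3 (12) and GANT-61 2 (7). The rule looks for 1 array apart from the others, so it can hardly flag a slide that holds 2 arrays of a group. SANT-2 2 and 3 shared slide 2, ethanol 1 and 2 and cyclopamine 1 and 2 slide 1, and GANT-61 3 and 4 slide 3. The counts by slide and group are thus not comparable. The part of the dim signal of slide 2 in the flagged values was not tested.

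On ethanol 3 the level stood apart upward for ndufa10 (3.67), ndufa6 (4.56), ndufa9a (1.64), ndufs1 (5.14), ndufv1 (1.91) and ndufv2 (2.86). The same array stood apart upward for uqcrc2b (3.82), atp5f1d (5.67), atp5fa1 (5.54), atp5pb (5.73) and ndufaf7 (-0.77), and downward for ndufa3 (-1.40).

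On cyclopamine 3 the complex I levels that stood apart upward were those of ndufa8 (4.16), ndufa9a (1.56), ndufb7 (3.82), ndufs1 (5.36) and ndufv2 (3.26). So did sdha (4.64), uqcrc2b (3.96), cox4i1 (5.70), cox6a1 (5.18), cox7a2l (4.18) and cox7c (5.71). In complex V these were atp5f1b (7.24), atp5f1d (5.88) and atp5fa1 (5.28).

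On GANT-61 2 the level stood apart upward for ndufa10 (3.84), sdha (4.40), uqcrc2b (3.91) and cox7c (5.59), and downward for ndufa3 (-1.57), sdhdb (-0.51) and atp5po (4.04). cox5b2 stood apart upward on cyclopamine 1 (1.80) and GANT-61 1 (1.71), and sdhaf2 on cyclopamine 5 (0.55). The median level of complex V stood apart downward on SANT-2 1 (-0.21).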

How the results depend on the processing

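Over 372 results of a member in a comparison, 14 of 10032 values under the alternatives newly passed the threshold. None was called to begin with, so no call could be lost. The sign differed in 993 values, none of them called, and 179 values moved by more than the SD within groups, 170 of them under normexp. Normexp on median signals gave member medians of -0.94 for cyclopamine minus ethanol, -1.04 for cyclopamine minus SANT-2 and -1.06 for cyclopamine minus GANT-61. Its estimates were unusable on 3 arrays, so local background subtraction was added after seeing the data. For GANT-61 minus ethanol 8 members, ndufa12 among them, were called with array weights and 1 with slide as a block. For cyclopamine minus GANT-61 1 was called with array weights (ndufa12, -1.01), 1 with slide as a block and 1 with the replicate block. Leaving out 1 array gave 0 to 1: cox6a2 without cyclopamine 1 (-0.81, limma adjusted p = 0.0424) and ndufa12, tested only through GANT-61, without cyclopamine 3 (-1.06, 0.0390). With local background subtraction 13, 27 and 24 members lay above the median of all genes under cyclopamine, SANT-2 and GANT-61, against 33, 47 and 40.

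Under the replicate block, cox6a2 between cyclopamine and GANT-61 (-0.68, limma adjusted p = 0.0304) was the 1 member gained in the 6 comparisons. For SANT-2 and GANT-61 against ethanol the numbers did not pair the arrays by the rule used, and the block called 0 members.

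Counts over all genes moved more. Cyclopamine minus ethanol had 100 calls, against 10 with normexp, 30 without slide 1 and 256 with the replicate block. GANT-61 minus ethanol had 18, against 0 without slide 1, 196 with slide as a block and 1384 with array weights, and its calls split into 17 higher and 1 lower, or 15 and 3 in the authors' deposited table. Cyclopamine minus SANT-2 had 86, against 10 with normexp and 204 with the replicate block. Cyclopamine minus GANT-61 had 209, against 15 and 646, and SANT-2 minus GANT-61 had 30, against 3 and 116. SANT-2 minus ethanol had 0, against 3 with array weights. Signal over background limits ndufa12, cox6a2 and ndufs8b.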

Other observations

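Among genes beside the respiratory chain, higd1a, whose mammalian counterpart binds complex IV under low oxygen, was lower under cyclopamine than under SANT-2 by -0.38 and than under GANT-61 by -0.41. With slide as a block it was called in both comparisons (limma adjusted p = 0.0361 and 0.0313), where 1.54% and 5.36% of all genes were called. With the replicate number as a block, by which both were taken as paired, it was called in neither (adjusted p = 0.243 and 0.0701). Without a block it was not called (adjusted p = 1.00 and 0.385).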
